A study of Mus musculus with 8 samples.

Results

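RNA-seq was compared between 2 libraries of whole testis from Alkbh5-/- mice (KO) and 2 from wild-type mice (WT), all taken at postnatal day 12 (P12). These 4 libraries, chosen by their sample titles, were fitted on their own and belong to a series of 8, in which the other 4 come from P18 testes. All are poly(A)-selected RNA from the whole organ, so germ cells of every stage and somatic cells are read together. The submitters describe the P12 testis as holding mainly leptotene and zygotene spermatocytes. The labels name no strain and do not describe how the null allele was made, and they do not say that the libraries of a group came from separate animals. The p-values therefore measure only the spread between these libraries, which may be technical. Of 38163 genes listed, 14802 had at least 1 FPKM (fragments scaled by transcript length and sequencing depth) in at least 2 of the 4 libraries and were tested.

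ALKBH5 is a nuclear demethylase that removes N6-methyladenosine (m6A) from RNA, and its transcript and protein are abundant in testis. In the first wave of mouse spermatogenesis, spermatogonia enter meiosis in near synchrony. Spermatocytes then break and repair their DNA and align homologous chromosomes in leptotene and zygotene. In pachytene they complete crossovers and switch on a large programme of transcripts for later sperm structures, in part through the transcription factors A-MYB (Mybl1) and RFX2.

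The libraries held 58417668 to 61533168 counts, and 14429 to 14757 genes reached 1 FPKM in each. Across tested genes, log2(FPKM + 0.1) correlated at r = 0.9834 between the WT libraries, 0.9791 between the KO libraries and 0.9673 to 0.9776 across genotypes, a correlation over genes, which are not independent replicates. The targeted gene followed the labels at P12. Alkbh5 (chromosome 11, 60536381 to 60558512, GRCm38) had 3888 and 6746 counts in WT and 23 and 10 in KO (log2 difference of KO from WT -8.38 ± 0.41, SE, n = 2 per group; adjusted p = 0.00152, edgeR quasi-likelihood).

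3 promoters of genes that fell are shown because each holds letters of a motif of one of the factors named above. They are RefSeq promoter windows of the build GRCm38.p6, from 250 bases before to 50 bases after the annotated start, read along the gene. Capitals mark GGCAGTT, an A-MYB-type core, or GTTGCC and its reverse complement GGCAAC, a site of the RFX type. The windows are chr11:68927032-68927331 on the minus strand for Odf4, a protein of the outer dense fibres of the sperm tail, chr3:30647769-30648068 on the minus strand for Lrrc34, a leucine-rich repeat gene, and chr9:108392584-108392883 on the plus strand for 1700102P08Rik, a testis gene.
Odf4: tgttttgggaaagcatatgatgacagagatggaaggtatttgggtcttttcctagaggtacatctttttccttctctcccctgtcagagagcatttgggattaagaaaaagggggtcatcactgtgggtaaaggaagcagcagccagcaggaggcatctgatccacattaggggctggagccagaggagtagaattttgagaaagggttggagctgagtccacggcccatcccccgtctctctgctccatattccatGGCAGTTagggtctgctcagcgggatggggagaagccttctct
Lrrc34: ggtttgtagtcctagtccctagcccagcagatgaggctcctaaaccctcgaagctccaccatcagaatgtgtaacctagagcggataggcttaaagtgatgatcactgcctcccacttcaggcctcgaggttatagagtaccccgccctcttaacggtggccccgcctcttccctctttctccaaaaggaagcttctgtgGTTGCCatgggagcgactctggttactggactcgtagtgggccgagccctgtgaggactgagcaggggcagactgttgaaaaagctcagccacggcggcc
1700102P08Rik: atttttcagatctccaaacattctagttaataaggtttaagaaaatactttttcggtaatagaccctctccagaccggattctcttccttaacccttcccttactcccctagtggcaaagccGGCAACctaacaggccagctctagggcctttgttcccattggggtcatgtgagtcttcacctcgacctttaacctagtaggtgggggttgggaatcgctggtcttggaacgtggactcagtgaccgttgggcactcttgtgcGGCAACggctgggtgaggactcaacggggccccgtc

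Of the 63 genes called lower, 40 had such a promoter window. In 27 of the 40 the bases after the start were found in an annotated transcript of the gene. GGCAGTT or AACTGCC was found in 3 of the 40 (7.5%), against 349 of 10314 tested genes with a window (3.38%). GTTGCC or GGCAAC was found in 7 of the 40 (17.5%), against 12.7%. Searched in the same way on both strands, TGACGTCA was in 0 of the 40, against 3.29%, and CACGTG in 4 of the 40, against 10.6%. The letters shown are thus in a minority of these promoters, and a match does not show that a factor binds there. The Odf4 match begins 7 bases after the annotated start, and the Lrrc34 match 50 bases before it. Those of 1700102P08Rik begin 128 bases before and 14 bases after it. In the libraries, Odf4 had 1.49 and 3.43 FPKM in WT and 0.127 and 0.0486 in KO, Lrrc34 1.34 and 1.64 against 0.405 and 0.327, and 1700102P08Rik 12.5 and 18.3 against 3.88 and 4.03. The factors themselves were not called. Mybl1 had 7.17 and 8.64 FPKM in WT and 5.56 and 6.09 in KO (log2 -0.43 ± 0.11, adjusted p = 0.17). Rfx2 had 2.07 and 2.82 against 1.34 and 1.26 (-0.90 ± 0.18, adjusted p = 0.0887).

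The differences that passed the test at P12 were losses. Genes that act on meiotic chromosomes, germ cell surface proteins and genes of sperm structures were among those that fell in KO, and no gene was called higher. edgeR called 63 genes lower (0.426% of those tested) and 0 higher (0.0%). At an unadjusted p under 0.05, 1199 were lower (8.1%) and 809 higher (5.47%). DESeq2 on the same counts called 473 lower (3.2%), all 63 among them, and 110 higher (0.743%). The calls rest heavily on KO replicate 1. Without it 7 genes were called lower and 2 higher, and of the 63 only Alkbh5, Gm43951, Tpbgl and Gm10076 were still called, although all 63 stayed below WT. Without WT replicate 1 the number called lower was 257, and without KO replicate 2 it was 337.

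Most genes differed little. The middle of the distribution, from the 25th to the 75th percentile, ran from -0.12 to 0.13 on the log2 scale, with a median of 0.01. The median size of the difference between the KO mean and the WT mean was 0.12. Between the single libraries of a genotype it was 0.0993 within WT and 0.15 within KO. Means of 2 libraries vary less than single libraries, so these sizes are not directly comparable. The tails were unequal. The 1st percentile was -1.16 and the 99th 0.68. A 2-fold or larger difference with no overlap between the genotypes was seen for 193 genes below WT (1.3%) and 44 above (0.297%). A log2 size of at least 2 without overlap was seen for 46 below and 6 above, and of at least 3 for 13 and 2. Without a size limit the sides were even, with 3389 genes (22.9%) in which both KO libraries lay below both WT and 3413 (23.1%) in which both lay above. Of the 193, 96 passed the level filter through WT alone, with both KO libraries under 1 FPKM. Of the 44, 20 passed through KO alone.

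**Figure D1:**
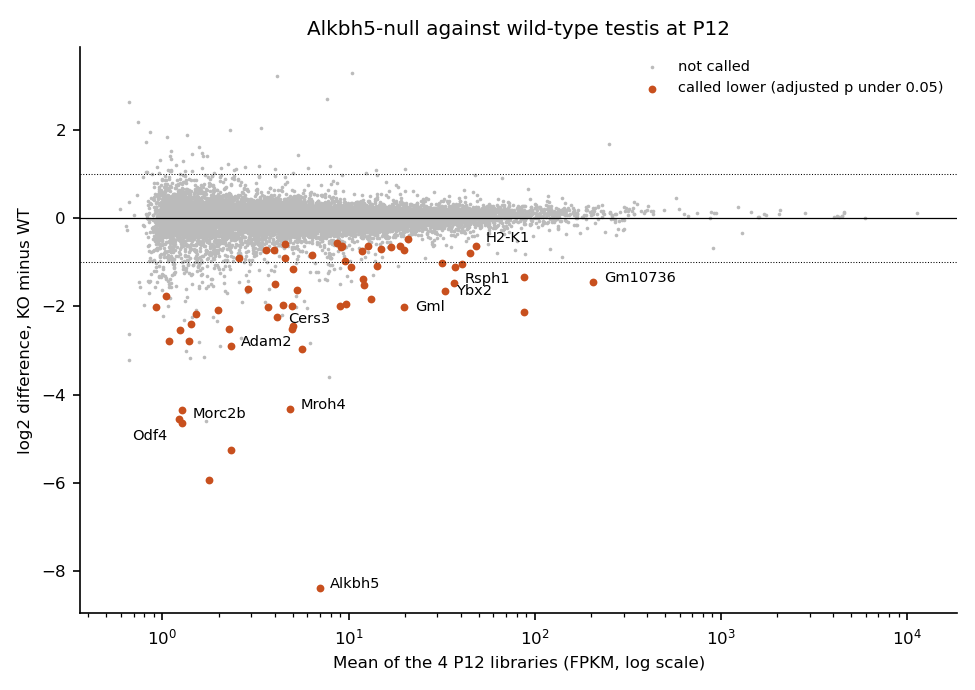
Log2 difference of KO from WT against the mean FPKM of the 4 P12 libraries (log scale), 1 dot per tested gene, with dotted lines at 2-fold. The 63 genes called lower (orange) reach from -0.48 to -8.38 (Alkbh5), and no called gene lies above 0.

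Among the 63, the median log2 difference was -1.60 (3.03-fold lower), 44 differed by at least 2-fold, and besides Alkbh5 the largest difference was that of Gm14244 (-5.94) and the smallest that of Kdm3a (-0.48), a histone H3K9 demethylase needed in later spermatogenesis. Their mean WT level had a median of 9.25 FPKM, against 6.87 over all tested genes. The calls were spread over the range of expression, with 19 of 5995 genes under 5 FPKM, 28 of 6224 from 5 to 20, 13 of 2330 from 20 to 100 and 3 of 253 above. In all 63 both KO libraries were below both WT, and 17 of the 63 passed the level filter through WT alone, with both KO libraries under 1 FPKM. Of the 63, 51 were protein-coding (81.0%, against 83.6% of tested genes), 10 long non-coding (15.9% against 6.93%) and 2 pseudogenes. None of the 63 was on the X chromosome, which holds 4.42% of tested genes. DESeq2 called 3 X-linked genes lower and 8 higher. 25 of the 63 share exonic bases with a gene on the opposite strand, and since strand use in counting is not given, their values are uncertain. Cntd1, Gml2, Atr, Kctd19, Ly6k, Tpbgl and Rexo5 are among them.

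The WT libraries themselves differed for these genes. WT replicate 2 was above WT replicate 1 in 56 of the 63 (88.9%, against 49.6% of all tested genes), by a median of 0.40 on the log2 scale. KO replicate 2 was above KO replicate 1 in 50 of the 63 (79.4%, against 53.6% of all tested genes), by a median of 0.15. The losses in KO are therefore measured against a pair of WT libraries that stand apart in the same genes, and the part of that difference in the result was not tested.

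Several genes that act on meiotic chromosomes fell. Meiob, which with Spata22 binds single-stranded DNA at recombination sites (chromosome 17, 24804289 to 24839788), had 15.2 and 19.4 FPKM in WT and 6.02 and 7.20 in KO. The log2 difference was -1.38 ± 0.16 (adjusted p = 0.0326), and the genotypes were far apart relative to the spread within each. Hfm1, a helicase of crossover formation, had 13.2 and 14.9 against 5.44 and 7.53 (-1.11 ± 0.15, adjusted p = 0.0423). Cntd1, a cyclin-like protein that turns recombination intermediates into crossovers, had 6.51 and 9.46 against 2.05 and 1.92 (-2.0 ± 0.19, adjusted p = 0.0254). Its difference was the largest of these 3.

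Genes of the chromosome axis and its attachment were also called. Sycp2, a lateral element protein of the synaptonemal complex, had 53.3 and 61.3 FPKM in WT and 29.6 and 35.9 in KO (log2 -0.80 ± 0.11, adjusted p = 0.0465). Terb1, which ties meiotic telomeres to the nuclear envelope, had 5.97 and 5.96 against 2.86 and 3.44 (-0.92 ± 0.13, adjusted p = 0.0465). Nemp1, an inner nuclear membrane protein, had 10.7 and 11.7 against 6.51 and 7.55 (-0.66 ± 0.10, adjusted p = 0.0465). For these genes the WT libraries were close to each other and KO replicate 1 was the lowest of the 4. Atr, the kinase that answers unrepaired and unpaired DNA, fell from 14.1 and 15.6 to 8.0 and 9.74 (-0.74 ± 0.10, adjusted p = 0.0465). Sycp3, Hormad1 and Sycp1, abundant axis and synapsis genes, did not pass with edgeR (-0.71, -0.79 and -0.52, with adjusted p of 0.0887, 0.109 and 0.0883). DESeq2 called each of them lower (adjusted p = 6.89e-06, 1.85e-05 and 5.45e-05).

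Surface proteins of germ cells made up the second group. Gml, Gml2 and Ly6k, GPI-anchored proteins of the Ly6 type, lie side by side on chromosome 15 (74796874 to 74834871). Gml had 25.5 and 38.5 FPKM in WT and 7.38 and 8.30 in KO (log2 -2.02 ± 0.20, adjusted p = 0.0264). Gml2 had 12.3 and 16.3 against 2.96 and 4.14 (-2.0 ± 0.22, adjusted p = 0.0306). Ly6k, whose protein pairs with TEX101 and is needed for sperm to pass into the oviduct, had 48.2 and 53.6 against 21.4 and 25.3 (-1.12 ± 0.12, adjusted p = 0.0284). In each both KO libraries lay far under both WT libraries. The KO libraries lay close together for Gml and Ly6k and further apart for Gml2. Lypd4, another Ly6-type protein, had 2.00 and 2.96 against 0.50 and 0.59 (-2.17 ± 0.31, adjusted p = 0.0465). Adam2, a membrane protease-like subunit of sperm fertilin, had 2.83 and 5.39 against 0.522 and 0.563 (-2.91 ± 0.33, adjusted p = 0.0329). Tex101 itself, the most abundant of the set, had 172 and 190 against 82.9 and 113 and just missed the threshold with edgeR (-0.88 ± 0.13, adjusted p = 0.0539). DESeq2 called it lower (adjusted p = 5.18e-10).

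Ybx2, Hspa2 and Tesmin are called genes of the pachytene and diplotene list. Morc2b is on the transposon silencing list, and Kctd19, Cers3 and H1f10, described with them, are on no list. Ybx2, which binds and stores germ cell mRNA, had 39.2 and 60.9 FPKM in WT and 13.7 and 18.1 in KO (log2 -1.65 ± 0.21, adjusted p = 0.0423). Hspa2, the testis HSP70 chaperone, had 36.4 and 48.1 against 19.3 and 22.5 (-1.01 ± 0.14, adjusted p = 0.0465). Kctd19, a nuclear protein needed to complete meiotic prophase, had 16.9 and 24.4 against 4.4 and 7.07 (-1.85 ± 0.24, adjusted p = 0.0423). Neither genotype overlapped the other, and WT replicate 2 was the highest in each of the 3. Tesmin, a DNA-binding protein of male meiosis, fell from 16.1 and 19.9 to 4.75 and 7.86 (-1.51 ± 0.22, adjusted p = 0.0465). Morc2b, a MORC-family ATPase gene used in meiosis, fell from 1.63 and 3.22 to 0.120 and 0.111 (-4.35 ± 0.38, adjusted p = 0.0254). Cers3, which makes ceramides with very long acyl chains, fell from 4.74 and 8.94 to 1.43 in both KO libraries (-2.25 ± 0.29, adjusted p = 0.0423). H1f10, a linker histone, had 8.49 and 5.63 against 1.49 and 2.08, and here WT replicate 1 was the higher (-1.98 ± 0.28, adjusted p = 0.0465).

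Genes known from sperm structures were already read in P12 testis, mostly at a few FPKM. Rsph1 and Cfap65 are on the motile cilium list, and the others are on no list. Rsph1, a radial spoke head protein of motile axonemes, was the abundant one, with 40.9 and 67.2 FPKM in WT and 18.3 and 20.6 in KO (log2 -1.47 ± 0.21, adjusted p = 0.0465). Cfap65, needed for sperm tail and head shaping, had 1.51 and 3.37 against 0.322 and 0.375 (-2.79 ± 0.37, adjusted p = 0.0423). Odf4, given above, had the largest loss among them (-4.64 ± 0.60, adjusted p = 0.0423). Catsperg2, an accessory subunit of the sperm calcium channel, Dkkl1, an acrosomal protein, and Stk33, a kinase of sperm tail assembly, also fell (-2.40, -2.08 and -1.50, adjusted p = 0.0465 each). Mroh4, a HEAT-repeat gene on chromosome 15 (74606029 to 74636353), fell from 5.75 and 12.8 to 0.374 and 0.533 (-4.32 ± 0.40, adjusted p = 0.0254). Of the genes in this paragraph, Cfap65, Odf4, Catsperg2, Dkkl1 and Mroh4 passed the level filter through WT alone, as did Morc2b, Adam2, Lypd4 and Lrrc34 above.

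**Figure D2:**
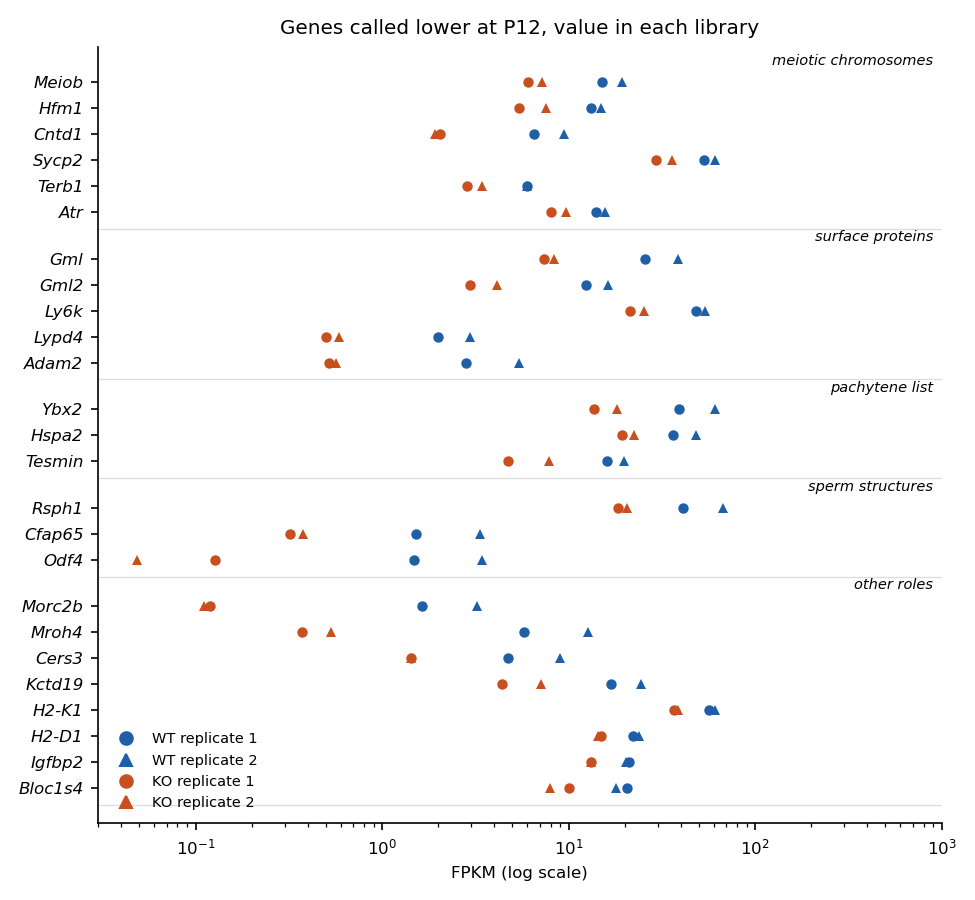
FPKM (log scale) of 25 genes called lower, 1 line per gene, with blue points for the WT and orange points for the KO libraries (circles replicate 1, triangles replicate 2). Every orange point lies to the left of both blue points of its gene, from Sycp2 near 60 FPKM in WT to Odf4, with 0.0486 FPKM in KO replicate 2.

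A last group has no role that is particular to germ cells. H2-K1 and H2-D1, the classical MHC class I heavy chains, had 56.4 and 60.7 against 36.6 and 38.7 FPKM and 22.0 and 23.9 against 15 and 14.4 (log2 -0.63 ± 0.07 and -0.64 ± 0.09, adjusted p = 0.0329 and 0.0465). They resemble other class I genes, and how reads shared with those were counted was not tested, so both values are uncertain. Igfbp2, a binding protein of insulin-like growth factors, had 21 and 20.4 against 13.2 in both KO libraries (-0.65 ± 0.09, adjusted p = 0.0465). Bloc1s4, a subunit of the complex that builds lysosome-related organelles, had 20.7 and 18 against 10.1 and 7.96 (-1.09 ± 0.16, adjusted p = 0.0465). Fbxl5, an iron-sensing ubiquitin ligase subunit, had 14.9 and 16.2 against 10.2 and 9.86 (-0.63 ± 0.08, adjusted p = 0.0355). The libraries of each genotype lay close together for H2-K1, H2-D1, Igfbp2 and Fbxl5, whose differences were under 2-fold, while Bloc1s4 passed 2-fold with a wider spread in KO. H2-K1 and H2-D1 were the 2 genes called among 23 tested interferon and antigen presentation genes, a list with a median of 0.01.

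For the cell of origin, 18 marker lists were counted. In the 63 called genes only 7 were on a cell list, 3 on that of leptotene and zygotene spermatocytes (Meiob, Sycp2, Terb1) and 4 on that of pachytene and diplotene spermatocytes (Adam2, Ybx2, Hspa2, Tesmin). All 32 genes of the leptotene and zygotene list were tested and all 32 had a difference below 0, with a median of -0.49. In 28 of the 32 both KO libraries were below both WT, where the share over all tested genes was 22.9%. Their summed FPKM, as a percent of the WT mean, was 96.3 and 104 in WT and 61.0 and 78.3 in KO. Of 30 pachytene and diplotene genes 22 were tested, 2 of them with both KO libraries under 1 FPKM. 19 of the 22 were below 0, 18 without overlap, and the median was -0.74. Their sum was 84.0 and 116 percent in WT and 48.0 and 52.9 percent in KO. In a bulk sample, fewer cells of a type and less RNA per cell cannot be told apart.

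Markers of spermatogonia lay close to WT, and those of meiotic entry lay below it. Of 13 tested markers of undifferentiated spermatogonia, 11 were above 0, with a median of 0.12, and the sums were 106.5 and 93.5 percent in WT and 111 and 113 percent in KO. The 12 markers of differentiating spermatogonia had a median of -0.02, which changed sign without WT replicate 1 or KO replicate 1. Among the 10 meiotic entry genes edgeR called none and DESeq2 called 3 lower. 9 of the 10 were below 0, 6 without overlap (22.9% over all tested genes), and the median was -0.24. Of these, Ythdc2, an RNA helicase with an m6A-binding domain that is needed for meiotic entry, had 9.14 and 9.41 FPKM in WT and 5.91 and 7.05 in KO (log2 -0.51 ± 0.10, adjusted p = 0.085). Only 3 of 20 round spermatid markers reached the filter, and 2 of the 3 were above 0.

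Somatic markers lay slightly above WT. No Sertoli gene was called by edgeR, and 7 of 31 tested were by DESeq2, all higher. Of the 31, 28 were above 0, 15 without overlap (23.1% over all tested genes), and the median was 0.23. Their sum was 103 and 96.7 percent in WT and 121 and 109 percent in KO. Kitl, the Sertoli ligand for KIT on spermatogonia, had 34.7 and 33.8 FPKM in WT and 44.6 and 45.2 in KO (log2 0.40 ± 0.07, adjusted p = 0.0611). Inha, the inhibin alpha subunit, had 300.5 and 299.1 against 398.2 and 370.7 (0.37 ± 0.07, adjusted p = 0.0941). Both KO libraries exceeded both WT for each of these genes, and the libraries of a genotype lay close together. Amh, anti-Müllerian hormone of immature Sertoli cells, had 35.2 and 29.7 against 41.8 and 58.9 (0.64 ± 0.16, adjusted p = 0.149), and its KO libraries differed more from each other than the WT libraries did. Of 16 tested Leydig genes 14 were above 0, where 7855 of all 14802 tested genes were. Only 4 of the 16 were above WT without overlap, near the share of 23.1% over all tested genes. Neither edgeR nor DESeq2 called any of them. The Leydig median was 0.25, which fell to 0.06 without KO replicate 1.

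Other somatic lists had medians nearer to that of all genes. Peritubular myoid genes had a median of 0.00, interstitial fibroblast and progenitor genes 0.08, endothelial genes 0.15 and red blood cell genes -0.05, and none of their genes was called. The macrophage list had a median of -0.00, yet its sum was 120 percent of the WT mean in KO replicate 1 and 71.8 percent in KO replicate 2. None of 14 lymphocyte and mast cell genes reached the filter, and 2 of 15 hepatocyte genes did. The part of these shifts in the called genes was not tested.

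**Figure D3:**
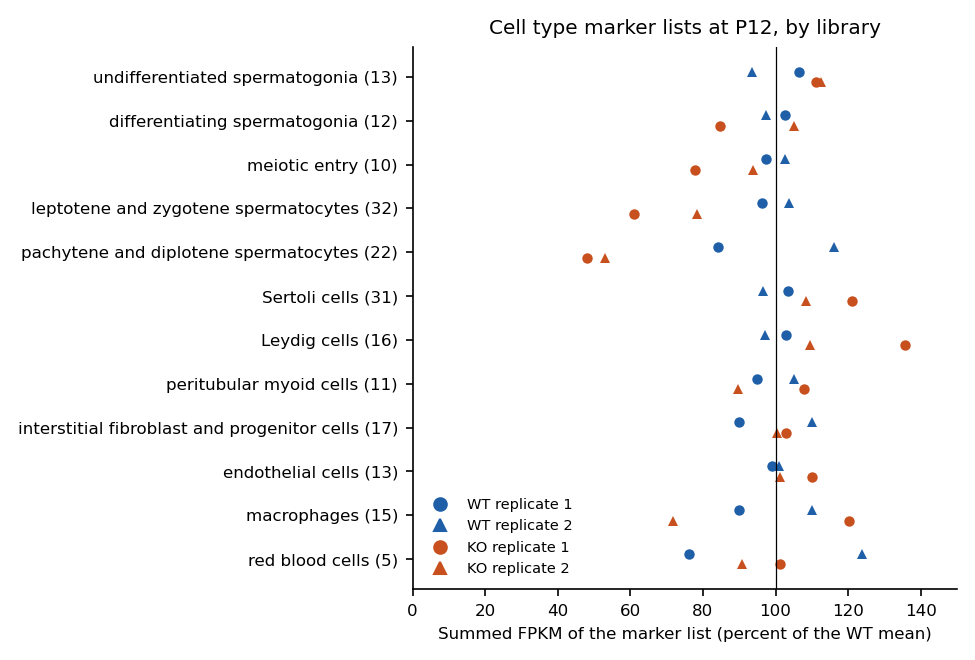
Summed FPKM of each marker list in each P12 library, as a percent of the mean of the WT libraries, with the number of tested genes in brackets (blue WT, orange KO). The leptotene and zygotene and the pachytene and diplotene lists have both KO points far to the left of WT, the meiotic entry points lie less far to the left, and Sertoli and Leydig points lie to the right.

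When in development these genes are read was looked up in the P18 libraries, each taken on its own, because Alkbh5 goes against the label in a pair of them. Alkbh5 had 0.00985 FPKM in replicate 1 labelled WT P18 and 0.155 in replicate 2 labelled KO P18. It had 9.07 FPKM in replicate 2 labelled WT and 17.9 in replicate 1 labelled KO. The 63 genes, Alkbh5 among them, had a median log2 level over the P12 mean of 2.09 and 2.27 in the pair with Alkbh5, in that order. Over all tested genes these medians were -0.26 and -0.50. In the pair without Alkbh5 (replicate 1 labelled WT, replicate 2 labelled KO), the 63 had 0.52 and 0.55, against -0.06 and -0.05. The P12 mean holds the KO libraries in which these genes were chosen as low, so a level equal to that of WT at P12 gives a median of 0.57, and the values of the pair without Alkbh5 are close to it. In 55 of the 63 (87.3%, against 22.5% of tested genes) both libraries with Alkbh5 were above every P12 library. In the pair without Alkbh5 this held for 10 of the 63 (15.9%, against 19.4%). The genes lower at P12 were thus mostly higher than at P12 in the P18 libraries with Alkbh5, and mostly not in those without. The 8 others were Alkbh5, H2-K1, H2-D1, Igfbp2, Bloc1s4, the pseudogenes Gm10736 and Rps27a-ps2, and the long non-coding gene Gm10076. Odf4, for example, had 73.2 and 104 FPKM in the P18 libraries with Alkbh5 and 1.98 and 3.16 in those without, and Bloc1s4 had 23.0 and 14.1 against 20.2 and 18.

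For the 44 genes 2-fold or more above WT, the P18 medians were between -0.89 and -0.57 in the 4 libraries. By the choice of these genes, a level equal to that of WT at P12 gives -0.70, so little can be read from them. The 110 genes that DESeq2 called higher had medians of -1.08 and -1.58 in the libraries with Alkbh5 and -0.26 and -0.39 in those without, where a level equal to that of WT at P12 gives -0.23.

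**Figure D4:**
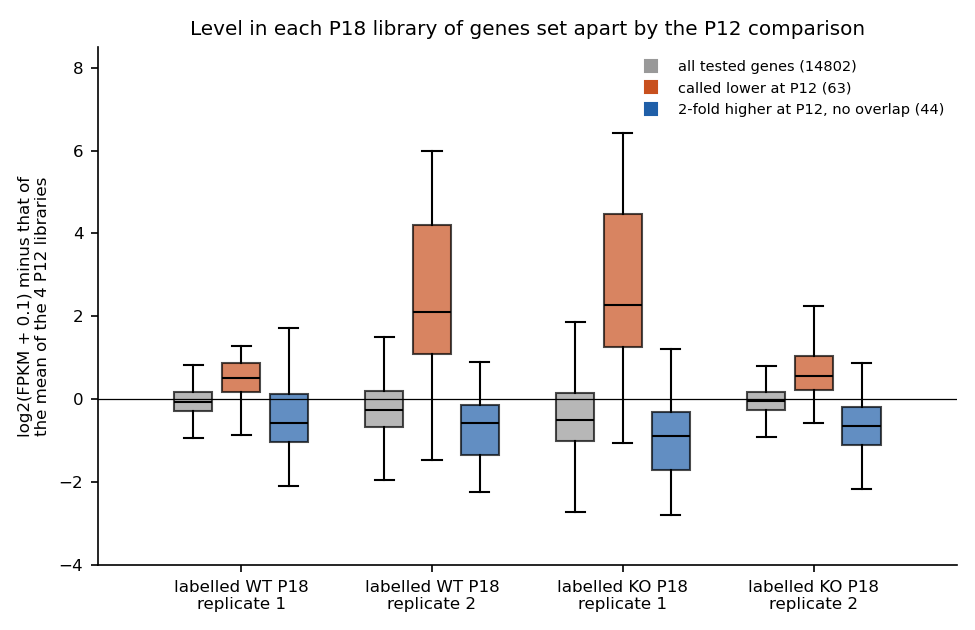
Log2(FPKM + 0.1) in each P18 library minus that of the mean of the 4 P12 libraries, for all tested genes (grey), the 63 genes called lower at P12 (orange) and the 44 at least 2-fold higher without overlap (blue). Boxes span the quartiles, the line is the median and whiskers reach 1.5 times the box without outliers. The orange medians, 2.09 and 2.27 in the libraries labelled WT replicate 2 and KO replicate 1, stand above those of all genes, and a level equal to that of WT at P12 would lie at 0.57 for the orange and -0.70 for the blue genes.

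Of the 44 genes with a 2-fold or larger difference above WT, 18 were pseudogenes (40.9%, against 7.1% of tested genes) and 12 were protein-coding. Their transcripts had a median length of 556 bases, against 2960. The 110 genes that DESeq2 called higher were not of this kind, with 6.36% pseudogenes, 85.5% protein-coding genes and a median length of 3157 bases. The values are uncertain where pseudogenes share reads with their parent genes. The entry named Ndor1, the symbol of a diflavin reductase, has 1 exon of 2045 bases. It had 0.449 and 1.14 FPKM in WT and 2.90 and 12 in KO, with the KO libraries further apart than the WT libraries (log2 3.23 ± 0.69, adjusted p = 0.107). Rpl17 and Epha2, named for large log2 differences, were under 2-fold and are not among the 44. Rpl17, a ribosomal protein gene with processed copies, had 39.2 and 53.3 against 89.8 and 83.0 (0.91 ± 0.14, adjusted p = 0.054). Epha2, an ephrin receptor, had 3.77 and 3.03 against 5.76 and 5.73 (0.76 ± 0.13, adjusted p = 0.0725). None passed with edgeR, while DESeq2 called Rpl17 and Epha2 (adjusted p = 5.99e-09 and 0.000128) and not Ndor1 (0.0611).

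Among abundant genes above WT, with an unadjusted p under 0.01, were the glutathione transferases Gstm1 and Gstm2. Gstm1 had 494.9 and 476.7 FPKM in WT and 704.8 and 615.9 in KO (log2 0.45 ± 0.09, adjusted p = 0.0904). Gstm2 had 312.8 and 321.6 against 406.3 and 376.4 (0.31 ± 0.08, adjusted p = 0.149). Both KO libraries were above both WT in each, and KO replicate 1 was the highest. Below WT by the same rule, the endoplasmic reticulum chaperone Hspa5 had 297.5 and 322.1 against 224.8 and 250 (-0.38 ± 0.08, adjusted p = 0.115) and did not pass with edgeR either. DESeq2 called Gstm1, Gstm2 and Hspa5 (adjusted p = 7.52e-05, 0.00869 and 0.000595).

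Across 26 function lists, those of meiosis and sperm assembly had the lowest medians and most others lay near the 0.01 of all genes. Over all tested genes, 0.426% were called lower and 46.9% had a difference below 0, and the counts that follow are read against these. The GPI-anchored and ADAM surface list had the lowest, -1.12, with 5 of 9 tested genes called lower (Gml, Gml2, Ly6k, Lypd4 and Adam2). 25 of its names are in the files and 9 reached the filter, 2 of them with both KO libraries under 1 FPKM. Gml, Ly6k and Adam2 were known to be lower in these libraries when that list was drawn up. All 22 tested motile cilium and axoneme genes were below 0, with a median of -0.48 and 2 called, but 6 of the 22 passed the filter with both KO libraries under 1 FPKM. Of 15 crossover designation genes, all tested, 2 were called (Cntd1 and Hfm1), all 15 were below 0 and the median was -0.40. The partners Msh4 and Msh5, whose proteins hold recombination intermediates together, had log2 differences of -1.08 and -0.86 (adjusted p = 0.0923 and 0.0843).

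Smaller shifts in the same direction were found for germ cell RNA-binding proteins (median -0.28, 1 of 20 called, Ybx2), transposon silencing genes (-0.26, 1 of 21, Morc2b) and DNA break repair and Fanconi genes (-0.21, 1 of 38, Atr). Medians of cell division lists were nearer to 0. The spindle and G2/M list had a median of -0.14 and the DNA replication list -0.10, with none of 28 and 33 called by edgeR. Still, 23 of the 28 and 25 of the 33 were below 0. Without overlap, 19 of the 28 and 15 of the 33 were lower, where the share over all tested genes was 22.9%. DESeq2 called 4 spindle and G2/M genes lower and no DNA replication gene, against 3.2% of all tested genes. Mki67, a marker of cycling cells, had 28.0 and 29.7 FPKM in WT and 19.7 and 21.3 in KO and just missed the threshold (log2 -0.49 ± 0.07, adjusted p = 0.0531).

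The RNA machinery around m6A had list medians close to 0, with single members on both sides. Of 22 writers, erasers and readers edgeR called 1, Alkbh5 itself, DESeq2 called 2 lower and 1 higher, and the median was -0.02. The median was -0.01 for 47 mRNA decay genes, 0.00 for 21 genes of 3′ end processing and 0.01 for 36 SR and hnRNP splicing factors. Splicing factors reached from -1.31 to 0.25. In the decay, 3′ end and splicing lists edgeR called none. DESeq2 called 1 decay gene lower, and 1 splicing factor lower and 1 higher, against 3.2% lower and 0.743% higher over all tested genes. The sign of each of these list medians changed in at least one alternative. Igf2bp2, a reader that stabilises m6A-marked mRNA, had 1.01 and 0.948 FPKM in WT and 1.42 and 1.70 in KO (log2 0.67 ± 0.17, adjusted p = 0.151). The missed threshold does not show that these genes are unchanged.

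Lists of somatic pathways, and those of immediate-early and of hypoxia and glycolysis genes, lay on the other side of 0, with no gene called by edgeR. DESeq2 called higher 3 of 27 inhibin, activin and BMP genes, 2 of 14 YAP and TEAD targets and 2 of 24 junction genes. It also called 1 of 18 immediate-early genes higher and 1 of 26 hypoxia and glycolysis genes lower. Over all tested genes it called 0.743% higher and 3.2% lower. The steroid synthesis list had a median of 0.21, which became -0.03 without KO replicate 1. YAP and TEAD targets had 0.16, inhibin, activin and BMP genes 0.15, immediate-early genes 0.15, hypoxia and glycolysis genes 0.10, and junction genes of the seminiferous epithelium 0.08. Gja1, connexin 43 of Sertoli and germ cell contacts, had 26.7 and 27.2 FPKM in WT and 33.9 and 34.2 in KO (log2 0.34 ± 0.07, adjusted p = 0.0857). The genotypes were far apart there relative to the spread within each.

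**Figure D5:**
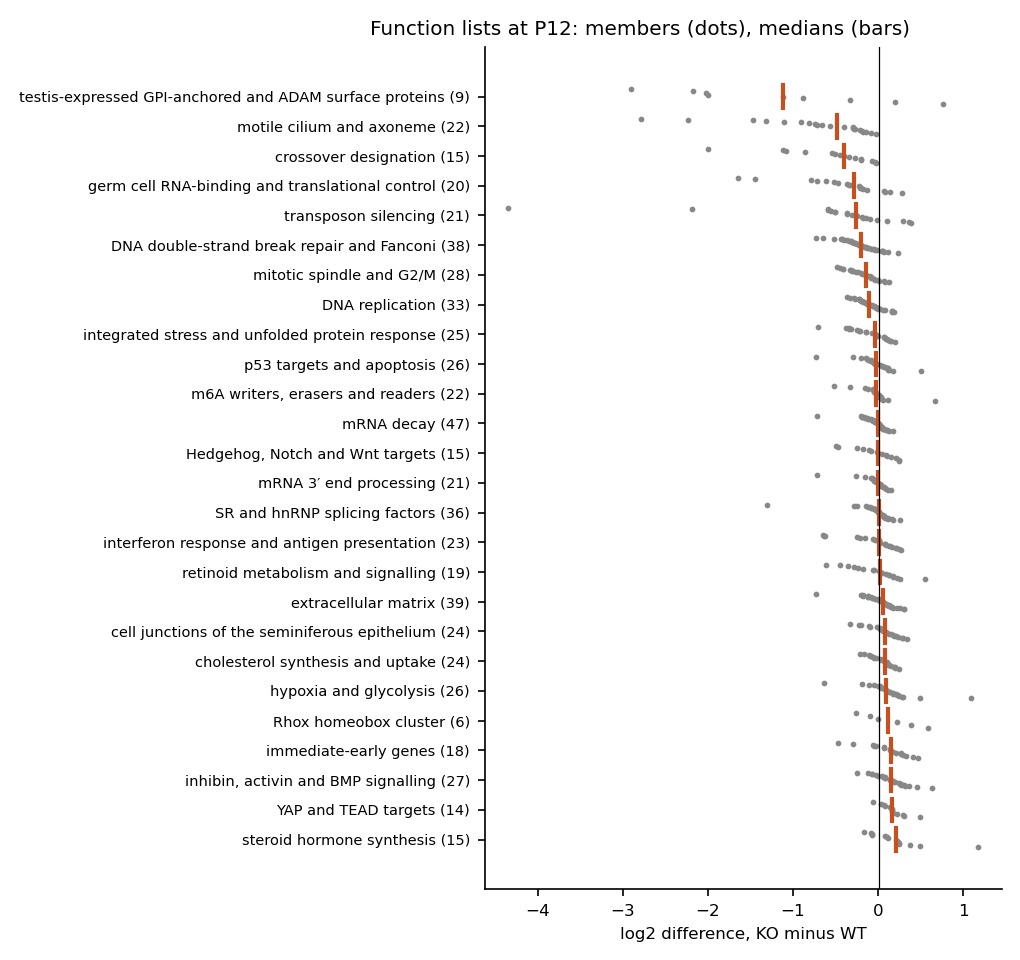
Log2 difference of KO from WT for the tested members of 26 function lists (grey dots) with the list medians (orange bars), ordered by median and with the number of tested genes in brackets. Alkbh5 (-8.38) is counted in its list but not drawn. The surface protein, cilium and crossover lists stand lowest at -1.12, -0.48 and -0.40, and the steroid list highest at 0.21.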

How the data were processed

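Whole-testis poly(A) RNA was sequenced as dUTP-marked paired reads, per the labels' protocols. HISAT2 2.2.1, StringTie 2.1.6, cutadapt 1.9 and the build GRCm38 are listed, without a role for each, per the submitters' processing notes. The authors deposited a read count and an FPKM value per gene and library. The counting tool and its strand setting are not given in the sources used here. The deposited counts were whole numbers, and no normalization of them was found.

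The counts of the 4 P12 libraries were scaled by TMM factors and compared by the two-sided quasi-likelihood F-test of edgeR 4.0.16 (R 4.3.3), with Benjamini-Hochberg adjustment over all 14802 genes tested, a threshold of 0.05 and 2 residual degrees of freedom. Genes entered the test with 1 FPKM or more in 2 or more of the 4 libraries. The standard error (SE) was taken as the absolute log2 difference over the square root of F. DESeq2 1.42.0, limma 3.58.1 on log2(FPKM + 1) and log2(FPKM + 0.1), other scalings and filters, robust weights, a term for the replicate number, all 8 libraries together and leaving out each library were alternatives. The fitting steps were tested on simulated data. No overlap means that both libraries of a genotype lie above both of the other in FPKM. Of the listed genes, 38000 are in GENCODE M21, 34935 with the same start and end, and transcript lengths, classes and opposite-strand partners come from it.

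Named genes were Alkbh5, every called gene, in each direction the 15 largest log2 and 10 largest FPKM differences among tested genes with an unadjusted p under 0.01, no overlap, at least 5 FPKM in the higher group and an established name, and up to 4 genes of lowest p, plus defining markers, in each of 44 lists. A called gene is not reported here. Mybl1 and Rfx2 were named after their values were seen. The comparison, the members and the lists were chosen with earlier results of these data known. In the crossover list, the symbols standing for Spo16 and Redic1 were wrong and were corrected after the values were seen, which took 1700102P08Rik, a called gene, off that list.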

Additional observations from a re-analysis of the deposited data

How the results depend on the processing

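All 63 genes called lower stayed below WT in every alternative in which they were tested, but the number of calls depended strongly on the tool, the filter and single libraries. Genes called lower numbered 1 with no FPKM filter, 473 with DESeq2, 0 with limma on log2(FPKM + 1) (1855 in both directions at an unadjusted p under 0.05), 1 with limma on log2(FPKM + 0.1), 103 with robust weights, 405 with the replicate block and 0 in the fit of all 8 libraries (136 at an unadjusted p under 0.05). Leaving out 1 library gave 7 to 337. Genes called higher, 0 in the fit reported, numbered 2 with upper-quartile scaling, 110 with DESeq2, 4 with robust weights, 90 with the replicate block and 2 to 82 with 1 library left out, where the lone library of a genotype is assumed to vary like the other genotype. The counts of 2-fold differences without overlap became 1557 lower and 936 higher with no filter, 51 and 9 at 5 FPKM, and 79 and 9 with limma on log2(FPKM + 1), and the higher count was 63 to 108 with 1 library left out. Over all tested genes, same-numbered deviations had almost no correlation (r = -0.019). Among the 63, however, replicate 2 was above replicate 1 in 56 in WT and in 50 in KO. All 63 were also called under the block, within the 405 called lower there. Over 98 named genes and 14 alternatives, 913 values kept direction and call, 102 gained a call and 333 lost one. Of the list medians, 510 moved by less than the replicate spread and 35 by more. Those of the spermatocyte, crossover, cilium, surface protein and Sertoli lists kept their sign throughout. With 2 libraries a group, small differences were not detectable.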

Other observations

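Some called genes lay near each other on the genome, where 0.426% of all tested genes were called lower. Chromosome 17 held 15.9% of the called genes and 5.05% of the tested genes. On chromosome 17, 8 of them (Meiob, Gm49794, Gm49774, Rsph1, Morc2b, H2-K1, BC051142 and H2-D1) lie between 24804289 and 35267499, a stretch of 10.46 Mb with 256 tested genes and a median log2 difference of -0.01. On chromosome 15, Mroh4, Ly6k, Gml and Gml2 are 4 of 8 tested genes between 74606029 and 74834871, and the 4 not called there were Jrk, Them6, Lynx1 and Arc. No stretch of the length of that on chromosome 17 held more than 4 called genes on any other chromosome. Both stretches were picked after the calls were seen and have no test.

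By gene ontology terms in the deposited annotation, picked after the values were seen, 9 of 263 tested genes of spermatogenesis were called lower. So were 6 of 72 of the motile cilium, 4 of 49 of the acrosomal vesicle and 3 of 14 of the sperm principal piece. Other terms had 5 of 107 (meiotic cell cycle), 3 of 24 (male meiotic nuclear division), 3 of 32 (synapsis), 3 of 163 (cell surface) and 3 of 218 (cilium). Over all tested genes 0.426% were called lower. However, 17 of the 63 called genes entered the test through WT alone and could only be lower. How many of them are in each term was not counted. Of the 10 long non-coding genes called, Gm14244 had 1.66 and 5.35 FPKM in WT and 0.0365 and 0.0697 in KO, and 97.2 and 96.3 in the libraries labelled WT P18 replicate 2 and KO P18 replicate 1. 1700008K24Rik had 6.82 and 13.2 against 1.18 and 1.32, and 186.4 and 188.1 in the same P18 libraries.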
